A study of Drosophila melanogaster with 19 samples.

Results

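The genes described here are the chemoreceptor genes of Drosophila melanogaster, taken as all genes whose symbol begins with Or, Gr or Ir, a number and a lower-case letter. The pattern matched 185 genes, of which 179 were protein-coding and 6 were pseudogenes. The 179 protein-coding genes were set against 13767 other protein-coding genes, out of 17807 genes on 7 chromosomes. They comprised 59 Or, 60 Gr and 60 Ir genes. None of the 6 pseudogenes had a peak at a gene end in any library, and they are left out of the counts below.

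Or genes encode odorant receptors, Gr genes encode gustatory receptors for sugars, bitter compounds and carbon dioxide, and Ir genes encode ionotropic receptors related to glutamate-gated channels. Each receptor is normally made in a few types of sensory neuron. Tuned Or receptors work there together with the broadly expressed co-receptor Orco, and tuned Ir receptors with co-receptors such as Ir8a, Ir25a, Ir76b or Ir93a. The working description of the genes as silent in these cells could not be checked, since the files used here hold no RNA measurement.

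All libraries came from 1 cultured fly line, labelled S2-DSRC. In AdMTase-seq, a methyltransferase puts m6A on adenines it can reach in isolated nuclei (here 20 min at 37 °C), and short DNA that carries the mark is captured with an m6A antibody and sequenced. There were 17 treated libraries. For Hia5 the doses were 0.6, 2, 6, 20, 60 and 200 U, with 2 libraries each at 2 U and 6 U and 1 at every other dose. Single libraries were made with Btr192IV and with EcoGII at 3 doses (0.6, 2 and 6 U), with EcoGI at 2 doses (0.6 and 2 U), and with Hin1523 at a dose of 2 U. An antibody capture without enzyme (untreated) and an uncaptured DNA input served as controls.

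Each library has 1 list of peaks called by the authors at an FDR of 5%. Treated lists held from 772 peaks (Hia5 60 U) to 13395 peaks (EcoGII 6 U), the untreated list 1974 and the input 32. Relative depth, read from the step of the authors' peak heights, ran from 7.28 to 25.5 over the treated libraries and was highest in EcoGII 6 U. It was 0.673 in the input, read from 32 peaks. The step follows depth only if all lists were scaled alike, which the sources used here do not give. An empty input region is therefore given little weight. Below, a gene-end peak is a peak that touched, by at least 1 bp, the 500 bp on either side of either end of a gene. The reference table gives no strand, so an end can be the 5' or the 3' end. Of 12 hemocyte markers, 6 had a gene-end peak in a treated library, near the 43.4% of all protein-coding genes, so peaks alone gave no check of the cell type. Among the 6 were zfh1 in 13 and Col4a1 in 15 libraries. Hml, NimC1, eater, He, Sr-CI and ush had none. Of 5 neuron markers, elav had one (11 libraries), and nSyb, Syt1, brp and para had none.

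Chemoreceptor genes rarely carried a peak at either end, and 158 of the 179 had none in any treated library. The other 21 genes are 11.7% of the family (95% Wilson interval 7.80 to 17.3), where 43.4% of all protein-coding genes had a gene-end peak in at least 1 treated library. These intervals cover counting error only. They treat genes as independent, although the end windows of clustered genes can overlap. Among genes that had any such peak, the median number of treated libraries was 2 for chemoreceptor genes and 4 for other genes. Of the 21 genes, 8 were marked in 1 library, 5 in 2 libraries and 8 in at least 3. The most widely marked was Gr63a, in 9 of 17 libraries.

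At the lowest doses the distance between the family and other genes was wide. At Hia5 0.6 U, 9 chemoreceptor genes (5.03%, interval 2.67 to 9.28) had a gene-end peak, against 29.4% of all protein-coding genes. At Hia5 2 U the numbers were 4 genes in replicate 1 (2.23%) and 6 in replicate 2 (3.35%), against 17.6% and 17.7%. The mean of the 2 replicates was 2.79% ± 0.79 (SD, n = 2) for the family and 17.8% ± 0.046 (SD, n = 2) for the other genes. The difference, -15.03 percentage points ± 0.744 (SD, n = 2), was larger than the spread between the replicates.

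At higher doses of Hia5 the number of marked chemoreceptor genes was lower, except at the top dose. At 6 U it was 2 genes in replicate 1 (1.12%) and 1 in replicate 2 (0.559%), against 5.28% and 3.85% of all protein-coding genes, a family mean of 0.838% ± 0.395 (SD, n = 2). At 20 U it was 1 gene (0.559%) against 3.40%. At 60 U it was 0 of 179, which allows a share of up to 1.68%, against 0.774%. At 200 U it was 6 genes (3.35%, interval 1.55 to 7.12) against 3.89%. That share is near the background and is not a result about the family. Other genes exceeded the family by 5.90 times at 0.6 U and by 1.16 times at 200 U. With 1 library at each of these doses the difference carries no test.

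The 4 other enzymes gave low counts too. EcoGII marked 6 chemoreceptor genes at 0.6 U (3.35%), 7 at 2 U (3.91%) and 11 at 6 U (6.15%, interval 3.47 to 10.7), against 23.1%, 26.9% and 24.4% of all protein-coding genes. Btr192IV marked 4 at 0.6 U (2.23%), 2 at 2 U (1.12%) and 1 at 6 U (0.559%), against 9.39%, 7.01% and 1.89%. EcoGI marked 1 at 0.6 U (0.559%) and 2 at 2 U (1.12%), against 7.91% and 7.01%, and Hin1523 marked 3 at 2 U (1.68%) against 17.2%. At 2 U the enzymes therefore ranged from 2 genes (Btr192IV, EcoGI) to 7 (EcoGII), with the Hia5 replicates at 4 and 6. Units of different enzymes need not be equal, and the lists differ in length.

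The untreated library marked 0 of 179 chemoreceptor genes at a gene end, which allows a share of up to 1.68%, against 1.31% of all protein-coding genes. In the input, 0 of 13946 protein-coding genes had a gene-end peak. The family share lay below that of the other genes in 17 of 17 treated libraries, and its whole interval lay below in 14. The exceptions to the latter were Hia5 60 U, Hia5 200 U and Btr192IV 6 U. These libraries come from 1 cell line and share its genome, so their number is not a number of independent observations.

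**Figure D1:**
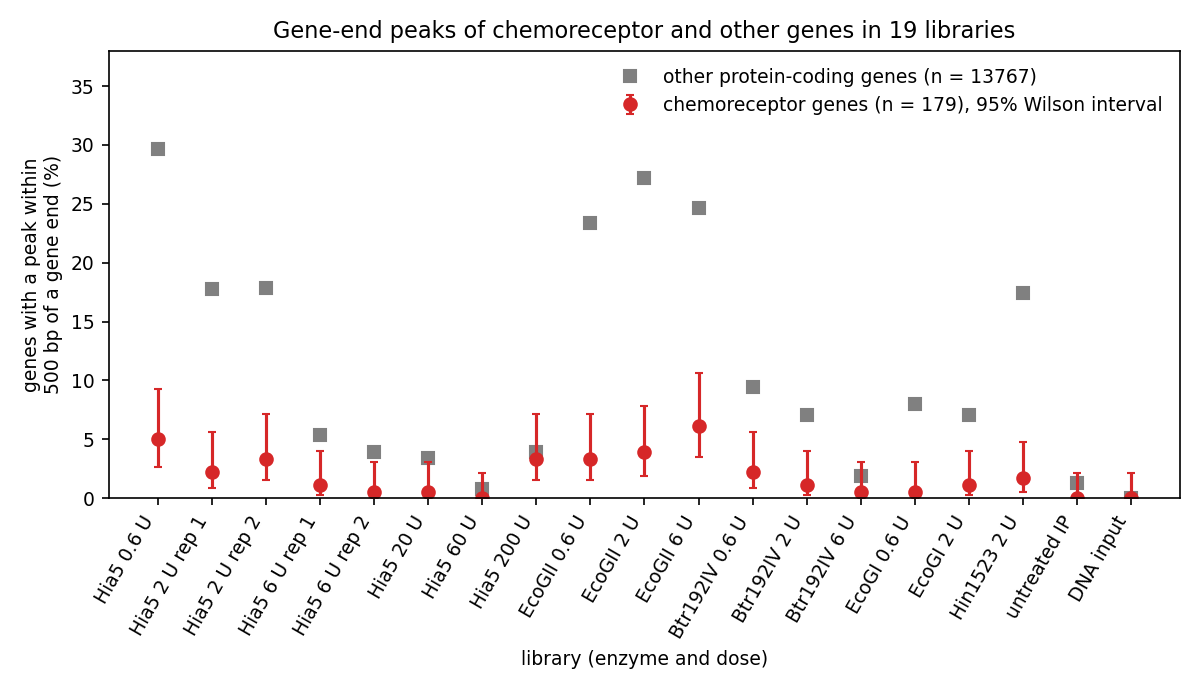
Share of genes (%) with a peak within 500 bp of a gene end in each of the 19 libraries, ordered by enzyme and dose. Red points are the 179 chemoreceptor genes with 95% Wilson intervals, grey squares the 13767 other protein-coding genes; red lies at 5.03% and grey at 29.7% for Hia5 0.6 U, and they lie at 3.35% and 3.90% for Hia5 200 U.

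All 3 receptor families were marked sparsely. A gene-end peak in any treated library was found at 4 of 59 Or genes (6.78%), 7 of 60 Gr genes (11.7%) and 10 of 60 Ir genes (16.7%). Their 95% intervals, 2.67 to 16.2, 5.77 to 22.2 and 9.31 to 28.0, overlap. On the X chromosome, 0 of 25 chemoreceptor genes were marked, against 39.2% of other protein-coding genes there. On 2R it was 9 of 46 (19.6%, others 45.6%), on 2L 4 of 31 (12.9%, others 41.5%), on 3L 4 of 35 (11.4%, others 45.3%) and on 3R 4 of 42 (9.52%, others 45.8%). Of the 75 genes that lie within 2000 bp of another member of the pattern, 2 were marked (2.67%, interval 0.734 to 9.21), and of the 104 solitary ones, 19 (18.3%, interval 12.02 to 26.8). Both shares lay below the 43.4% of all protein-coding genes.

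Of the co-receptors, 2 of 5 were marked, each in few libraries, against 43.4% of all protein-coding genes. With 5 genes this is not a result about co-receptors. Treated libraries had no peak at the ends of Ir8a, Ir76b or, outside the symbol pattern, Orco. Ir25a had one at Hia5 0.6 U and EcoGII 2 U, at a site that covers the end of Fnta. Ir93a had peaks at both ends at EcoGII 6 U, within 500 bp of the ends of RpS30 and KaiR1D. Both sites lay nearer to Ir93a. The left site lay inside Ir93a, its centre 361 bp from the Ir93a end and 643 bp from that of RpS30. The right site crossed the Ir93a end, its centre 24 bp from it and 218 bp from the end of KaiR1D. Gr21a, the partner of Gr63a in the carbon dioxide receptor, had none. Odorant-binding protein genes, which encode carriers of odorants in the sensillum lymph, were marked at 6 of 51 (11.8%, interval 5.51 to 23.4), and cuticle protein genes at 17 of 95 (17.9%, interval 11.5 to 26.8). Ribosomal protein genes, which all growing cells use, were marked at 60 of 92 (65.2%, interval 55.1 to 74.2). The chemoreceptor interval overlaps those of the first 2 lists and lies below that of the last.

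Peaks inside the genes, away from both end windows, were scarce as well. They were found in any treated library at 6 chemoreceptor genes (3.35%), against 22.4% of all protein-coding genes and 10.3% of other genes of similar length (1212 to 3961 bp). Chemoreceptor genes are shorter, with a median length of 1691 bp against 2178 bp for other protein-coding genes. The genes of similar length had a median of 2069 bp, so length was not fully matched. The 6 were Ir40a, a humidity receptor gene, in 13 treated libraries, Ir41a in 2, and Gr43a, Ir75d, Ir76b and Ir93a in 1 each. Of these, Ir40a, Ir41a and Ir93a are longer than any of the comparison genes of similar length. Ir40a, which spans 22189526 to 22214376 on 2L (dm6), also held an untreated peak at 22203562 to 22203693. Of the 17 treated libraries, 11 had a peak over that position. Ir41a, 104437 bp long, held 28 inner peaks at EcoGII 6 U and 11 at Hia5 200 U.

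A low-dose peak, at 0.6 or 2 U of any enzyme, reached the ends of 14 chemoreceptor genes (7.82%, interval 4.72 to 12.7), against 38.6% of all protein-coding genes. At 6 U or more 14 genes were marked too, against 27.1%. The low-dose and high-dose sets held 7 genes in common. The low-dose peaks merged across libraries into 15 sites, none of which overlapped an untreated or input peak.

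Only 4 genes were marked in at least 2 of the 3 Hia5 libraries at 0.6 and 2 U, against 19.7% of all protein-coding genes: Gr63a, Or46a, Ir48c and Gr94a. All 4 were marked in all 3 of these libraries. They are also the 4 genes of Hia5 2 U replicate 1, and replicate 2 held them beside Gr77a and Ir40a. Thus 100% of the family's replicate 1 genes and 66.7% of its replicate 2 genes were shared, and for other protein-coding genes 70.3% and 70.02%. At Hia5 6 U the replicates shared 0 chemoreceptor genes (Ir48c and Ir40a in replicate 1, Gr22f in replicate 2), so few that 0 shared says little. For other protein-coding genes 352 were shared, 48.0% of replicate 1 and 65.7% of replicate 2.

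For Gr63a and Or46a the peak sat on the end of a neighbouring gene. Gr63a, a subunit of the carbon dioxide receptor, runs from 3894999 to 3896603 on 3L. Its site, 3896726 to 3897000, lay 123 bp outside the right end and covered the left end of Lamtor4, at 3896900, a gene for a subunit of the Ragulator complex. Because the site covers its end, Lamtor4 counts as marked in the same 9 libraries, and it was marked in no other. They were the 3 Hia5 libraries at 0.6 and 2 U, both doses of EcoGI, all 3 doses of EcoGII, and the Hin1523 library. The peak ranked between the 45.5th and 76.4th percentile of height within its lists.

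Or46a, an odorant receptor gene, runs from 10139264 to 10142074 on 2R. Its site, 10142221 to 10142520, lay 147 bp outside the right end and covered the left end of CG18011 at 10142338, which thus counts as marked in the same 8 libraries and was marked in no other. These were the 3 low-dose Hia5 libraries, EcoGII at 0.6, 2 and 6 U, Btr192IV at 0.6 U and Hin1523 at 2 U. Or46a also lies within an antisense RNA gene, asRNA:CR43467. The height percentile of the site ran from 48.1 to 85.2. The CG18011 end was the nearer one, at 32.5 bp from the centre of the site against 296.5 bp for Or46a.

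Ir48c and Gr94a lie inside larger genes, and no neighbouring end was near their peaks. Ir48c runs from 11787808 to 11789493 on 2R, within ths (thisbe, an FGF ligand), which spans 11756817 to 11814424. The site, 11789881 to 11790184, lay 388 bp outside the right end of Ir48c and 10646 bp from the nearest end of a gene outside the family, that of CG42493. It was present in 8 libraries: the 3 low-dose Hia5 libraries, Hia5 6 U replicate 1, EcoGII at 2 and 6 U, Btr192IV at 0.6 U and Hin1523 at 2 U. Its height percentile ran from 16.4 to 59.8. No treated library had a gene-end peak at ths itself.

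Gr94a runs from 23051689 to 23052903 on 3R, within p53, the fly homologue of the p53 tumour suppressor, which spans 23049657 to 23054082. The site, 23051141 to 23051587, lay 102 bp outside the left end of Gr94a and 1484 bp from the nearest end of p53. An antisense RNA end (asRNA:CR46089) lay 1329 bp away. It was present in 5 libraries, all at low dose: Hia5 at 0.6 U and in both 2 U replicates, and EcoGII at 0.6 and 2 U. Its height percentile ran from 22.6 to 45.6. The ends of p53 were marked in 2 treated libraries, both among the 5 of Gr94a. The reference table gives no promoters inside genes, so none was looked for in ths or p53.

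**Figure D2:**
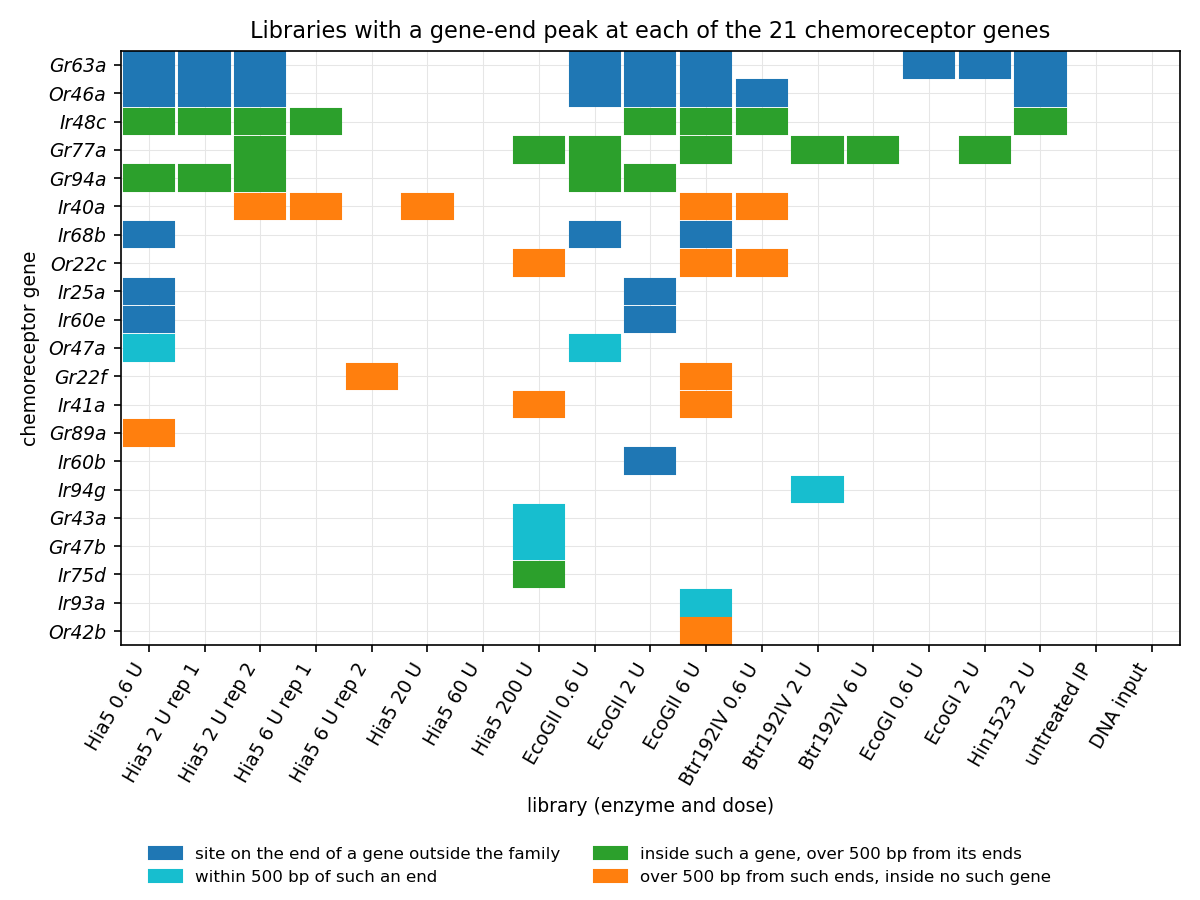
Libraries (columns, by enzyme and dose) in which each of the 21 marked chemoreceptor genes (rows) had a gene-end peak; a filled cell is a peak, and the colour gives the place of the gene's most widely seen site. Gr63a, Or46a, Ir48c and Gr94a fill the Hia5 0.6 U and 2 U columns, and Hia5 60 U, the untreated library and the input are empty.

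The remaining low-dose genes divided in the same way. At 4 of them the site covered the end of a gene outside the family. They were Ir25a (Fnta, the farnesyltransferase alpha subunit), Ir60b (Letm1, a mitochondrial ion transporter), Ir60e (CG13585) and Ir68b (yps, a Y-box RNA-binding protein). Ir68b was marked in 3 libraries, Ir25a and Ir60e in 2 and Ir60b in 1. A site on a neighbour's end marks the neighbour in the same libraries by definition. Beyond those, CG13585 was marked in 2 more, 4 in all, and yps, Fnta and Letm1 in none. With Gr63a and Or46a included, 6 of the 14 genes had their low-dose site on a neighbouring gene end.

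For 2 further genes a neighbouring end lay within 500 bp of the site without being covered. At Or47a, marked at Hia5 0.6 U and EcoGII 0.6 U, the end of the cuticle protein gene Cpr47Ea lay 497 bp from the site, farther than the end of Or47a at 335 bp. The site lies inside Cpr47Ea, which overlaps the right end of Or47a. At Ir94g, marked at Btr192IV 2 U alone, the end of lncRNA:CR44324 lay 174 bp away and that of Ir94g 318 bp away, and the site lies inside this RNA gene. Both sites were low in their lists, at height percentiles of 17.9 to 18.9 and 7.13.

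The other 6 low-dose genes had no outside gene end within 500 bp, and for 3 of them, Ir48c, Gr94a and Gr77a, the site likewise lay inside another gene. Gr77a lies within CG13252, whose nearest end was 6649 bp away, and its site at 20737240 to 20737437 on 3L lay 132 bp outside its left end. It was present in 7 libraries: Hia5 2 U replicate 2 and 200 U, EcoGII at 0.6 and 6 U, Btr192IV at 2 and 6 U, and EcoGI at 2 U. Gr77a thus had a mark at low and high dose, in 4 and 3 libraries, but not in Hia5 2 U replicate 1. The ends of CG13252 were marked in 9 treated libraries, 4 of them among the 7 of Gr77a. Of the 28 chemoreceptor genes that lie within a gene outside the family, 5 were marked in any treated library (17.9%, interval 7.88 to 35.6), and of the 151 others, 16 (10.6%, interval 6.63 to 16.5). The intervals overlap, and both lie below 43.4%.

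Gr89a, Or22c and Ir40a had sites outside any other gene. Gr89a was marked at Hia5 0.6 U alone, 220 bp from its left end and 1461 bp from the nearest outside end, that of the caspase gene Decay. Or22c was marked inside the gene, 270 bp from its right end, at Hia5 200 U, Btr192IV 0.6 U and EcoGII 6 U. Ir40a had 2 low-dose sites by its right end, at 22213381 to 22214240 and 22214621 to 22214960. They came from Hia5 2 U replicate 2 and Btr192IV 0.6 U, and at higher dose from Hia5 6 U replicate 1, Hia5 20 U and EcoGII 6 U. Their height percentile ran from 0.933 to 20.7, low in each list.

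**Figure D3:**
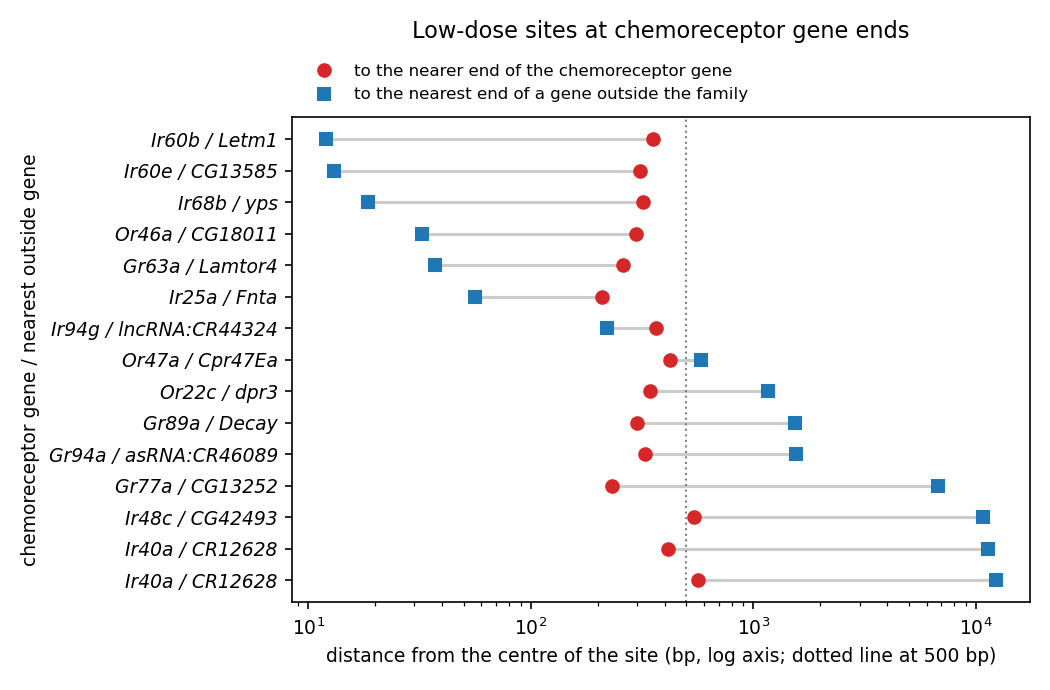
Distance in bp (log axis) from the centre of each of the 15 low-dose sites to the nearer end of its chemoreceptor gene (red circles) and to the nearest end of any gene outside the family (blue squares); the dotted line marks 500 bp. Blue lies left of red at 7 sites, from Ir60b with 12 bp to Ir94g, and right of it at 8, up to Ir40a.

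Sharing a peak with another gene was common outside the family as well. At 7 of the 14 low-dose chemoreceptor genes (50.0%, interval 26.8 to 73.2) each single low-dose peak lay within 500 bp of another gene's end. This was so for 59.5% of the 5373 other protein-coding genes with a low-dose gene-end peak. Or47a drops out of this count because 1 of its 2 peaks, taken alone, lay over 500 bp from Cpr47Ea. At 7 of the 14 (50.0%, interval 26.8 to 73.2) each low-dose peak lay nearer to the other gene's end than to the receptor's, against 26.3% of the other genes. That share lies just below the interval.

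Chemoreceptor genes lay farther from genes outside the family than other protein-coding genes lay from one another. Ends of fellow chemoreceptor genes were not counted, while related genes were counted for other genes, so the measure differs between the sets. Of the 179, 75 lie within 2000 bp of another member of the pattern. By this measure, the nearest end of a protein-coding gene outside the family lay at a median of 2227 bp from a chemoreceptor gene. Between other protein-coding genes it was 191 bp. That end was within 500 bp for 52 of 179 (29.1%) and for 70.9% of other genes. It was over 2000 bp away for 92 (51.4%) and 13.6%. The share with a low-dose peak was highest close to a neighbour in both sets, although the chemoreceptor intervals overlap. Such peaks were present at 8 of the 52 chemoreceptor genes with such a neighbour within 500 bp (15.4%, interval 8.01 to 27.5), 2 of 35 at over 500 and up to 2000 bp (5.71%, 1.58 to 18.6) and 4 of 92 beyond (4.35%, 1.70 to 10.7). For other genes the shares were 44.9%, 27.8% and 21.02%. At each distance the chemoreceptor interval lay below the share of the other genes. The distance is that of the gene, so the peak need not lie at the end with the close neighbour. At Gr89a, 1 of the 8, Decay lay 99 bp from the right end, but the site lay by the left end, 1461 bp from Decay.

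**Figure D4:**
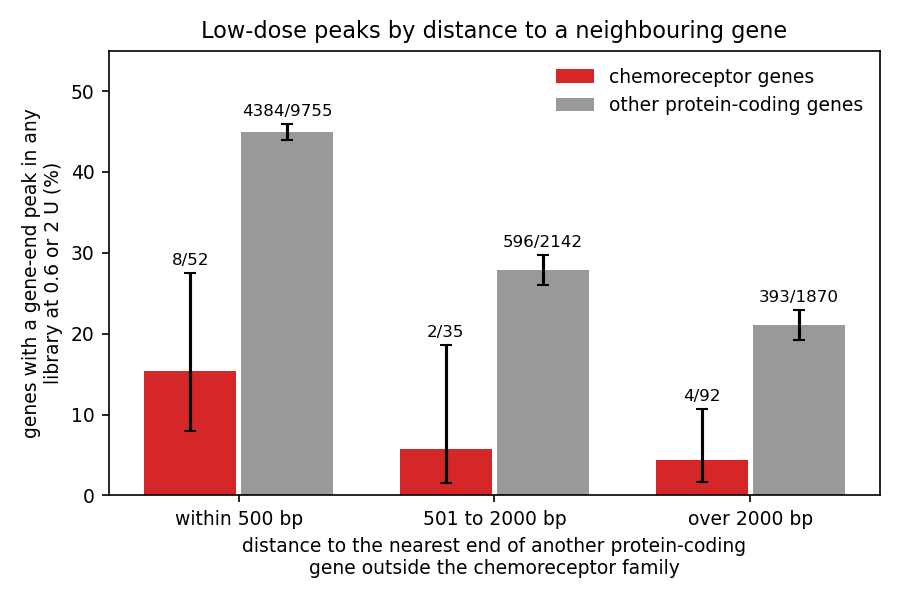
Share of genes (%) with a gene-end peak in any library at 0.6 or 2 U, by distance to the nearest end of another protein-coding gene outside the chemoreceptor family. Red bars are chemoreceptor genes, grey bars other protein-coding genes, error bars 95% Wilson intervals, and the counts stand above the bars; the red bars run from 15.4% to 4.35% and the grey from 44.9% to 21.02%.

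A marked neighbour was not always accompanied by a mark at the receptor. Of the 52 chemoreceptor genes with a protein-coding neighbour within 500 bp, 15 had a nearest neighbour with a low-dose gene-end peak, and 5 of these 15 were marked themselves (33.3%), against 3 of the 37 with an unmarked nearest neighbour (8.11%). The neighbour's peak could lie at either of its ends. A single peak can mark both genes by definition, so these shares are not independent. The nearest neighbour is also not always the gene under the site. Gr63a and Or46a count here beside unmarked Fie and CG12917, though their sites covered ends of Lamtor4 and CG18011. Gr89a counts beside unmarked Decay, which lies by its other end. Ir25a and Ir60e count beside tank and Brca2, though their sites covered ends of Fnta and CG13585. No conclusion is drawn from these shares. Among the 10 unmarked receptor genes were Gr64f beside CG11593 (marked in 14 treated libraries, 52 bp away), Gr85a beside Glut4EF (11), Gr58c beside CG9304 (11) and Ir76a beside SREBP (9), the sterol-response factor gene. These were named after their values were seen. The ends of these 4 receptor genes carried no peak in the treated libraries. The nearest ends of the 4 neighbours lay 52, 180, 276 and 299 bp away. By definition, a peak covering such an end would have marked the receptor too. The peaks of these neighbours therefore did not cover the end nearest to the receptor.

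The nearest peak was far from most chemoreceptor genes. At Hia5 0.6 U the median distance from a gene end to the centre of the nearest peak was 9.92 kb for chemoreceptor genes (quartiles 4.96 and 19.7 kb) and 3.33 kb for other protein-coding genes (0.358 and 10.3 kb). At EcoGII 6 U, the longest list, it was 7.71 kb against 3.32 kb. At Hia5 200 U it was 34.5 kb against 25.1 kb, and at Hia5 60 U 88.4 kb against 88.01 kb. In the untreated library it was 63.1 kb against 44.5 kb.

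At 6 U or more, 7 further genes were marked that had no low-dose peak. Gr43a, the fructose receptor gene, Gr47b and Ir75d were marked at Hia5 200 U alone, and Ir93a and Or42b at EcoGII 6 U alone. Ir41a was marked in both of these libraries, and Gr22f at Hia5 6 U replicate 2 and EcoGII 6 U. Of the 12 sites seen only at 6 U or more, 5 lay within 500 bp of an outside gene end, at Gr43a (Glo1), Gr47b (san, 2 sites) and Ir93a (RpS30 and KaiR1D, 1 site each). The Gr43a site and the Ir93a site by KaiR1D crossed the receptor gene's own end, as did an Ir40a site at Hia5 6 U replicate 1. At Gr47b, 1 site lay inside san and nearer to its end, and the other lay nearer to the end of Gr47b. Without Hia5 200 U, 18 genes were marked in any treated library in place of 21, and without EcoGII 6 U it was 19.

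No chemoreceptor gene passed a test of dose over libraries. Each of 6046 protein-coding genes with a gene-end peak in at least 1 treated library was tested. The presence of such a peak in the 10 libraries at 0.6 or 2 U was compared with the 7 at 6 U or more. Enzymes were pooled, and unevenly. EcoGI and Hin1523 were present only at low dose, and Hia5 made up most of the high-dose libraries but not of the low-dose ones. The pooled test therefore does not separate dose from enzyme. With Fisher's exact test, two-sided, and Benjamini-Hochberg adjustment over all 6046 genes, 0 genes passed (0%), and 999 had an unadjusted p under 0.05. Of the 21 chemoreceptor genes tested, 11 were marked more often at low dose and 10 more often at high dose, and 3 had an unadjusted p under 0.05. These were Gr63a, with a peak in 8 of 10 low-dose and 1 of 7 high-dose libraries (Fisher's exact p = 0.0152, adjusted p = 0.182), Gr94a (5 and 0) and Or46a (7 and 1), both at an adjusted p of 0.284 (Fisher's exact test). Restricted to the 3060 genes marked in at least 4 treated libraries, 6 of them chemoreceptor genes, the test called 49 genes, all more often marked at low dose. None of the 49 was a chemoreceptor gene (smallest adjusted p = 0.092, Fisher's exact test). Whether these 49 genes differ by dose or by enzyme was not tested. The smallest unadjusted p this exact test can give is 5.14e-05, for a gene marked in all libraries of 1 dose class and none of the other. Of the 21 chemoreceptor genes, 8 were marked in 1 library and 5 in 2. For these, Fisher's exact test cannot give a p below 0.412 and 0.154, so they could not pass whatever the dose. Library numbers split the libraries into 7 and 12, and 4 of the 7 high-dose libraries lie in the first set beside 1 low-dose library. Dose and library number are therefore largely confounded. With library number as a block, 0 genes passed (permutation of dose class within each set, smallest adjusted p = 0.609), and 310 had an unadjusted p under 0.05. Permutation within sets allows fewer arrangements of dose class, so its smallest possible p is larger than that of the unblocked test. The 0 passing genes therefore say little.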

How the data were processed

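AdMTase-seq peak lists of 19 libraries in 17 groups were analysed. Per the submitters' processing notes, BWA 0.7.12, SAMtools 1.2 and the builds dm6 and GRCh38 were used. The authors deposited 1 peak list per library, at an FDR of 5% per the file names. The deposited signal of each peak is its height in the authors' tag density. The program that called the peaks, its filters and the scaling: not given in the sources used here. Heights served to order peaks inside 1 list and to keep the highest. All heights were whole multiples of 1 step per library (100% within 0.05 of a step), and the inverse step was taken as relative depth. No library total was used.

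Gene positions came from the RefSeq table of release 6, which gives no strand or sequence, so promoter motifs and 5' ends were not analysed here. Intervals are 95% Wilson intervals, and 3 counts were taken as the limit for a count of 0. The per-gene test was checked on simulated data. Python 3.11.15, scipy 1.17.1, numpy 2.4.6, pandas 2.3.3 and matplotlib 3.10.9 were used.

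The members, gene lists and tests were chosen with earlier results of these data known. Genes to be named were those marked in at least 2 of the 3 low-dose Hia5 libraries, the 10 marked in the most libraries, those marked in a control, the co-receptors and the neighbours of the sites. The other marked genes were named after their values were seen. Alternatives changed the window, overlap, height threshold, list length, assignment to the nearest end, comparison genes and libraries. Replicates are not stated to come from separate cultures, so their spread may be technical.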

Additional observations from a re-analysis of the deposited data

Results flagged for a closer look

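The change from 0.6 U to 6 U ran in opposite directions by enzyme. The number of chemoreceptor genes with a gene-end peak was higher by 5 in EcoGII, 11 against 6. In Hia5 the differences were -7 and -8 for the 2 replicates at 6 U against the 9 genes at 0.6 U, and in Btr192IV the difference was -3, from 4 to 1. Over all protein-coding genes the share went from 23.1% to 24.4% in EcoGII, from 29.4% to 5.28% and 3.85% in Hia5, and from 9.39% to 1.89% in Btr192IV. The EcoGII 6 U list was the longest, with 13395 peaks at a relative depth of 25.5, against 6772 peaks at 9.89 for EcoGII 0.6 U. Whether these differences exceed the spread between libraries was not tested, and the part of list length in them was not tested.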

How the results depend on the processing

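The median over treated libraries of its share minus that of other protein-coding genes was -7.25 percentage points. It was -4.38 with windows of 200 bp, -10.5 with 1000 bp, and -5.37 with each peak at its nearest gene end only. With the upper 50% of each list by height it was -3.61, and against other genes of similar length -6.09. With lists of equal length (772 peaks) it was -1.32. There 0 members were marked, which allows up to 1.68%, so no difference could be shown. Among genes over 2000 bp from the end of another protein-coding gene outside the family it was -5.97, a setting chosen after seeing the data. Ends of fellow chemoreceptor genes did not count in that setting, so clustered chemoreceptor genes were kept. Leaving out each replicate gave -7.35 to -6.61.

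The counts of marked genes were less stable. The 21 genes marked in any treated library became 11 with windows of 200 bp, 8 in the upper 50% and 0 in lists of equal length. The 14 low-dose genes became 6, 4 and 0 under the same settings, and 7 with the nearest end only. The 4 genes in at least 2 of 3 Hia5 libraries became 8 with windows of 1000 bp, 2 with the nearest end only, 2 in the upper 50% and 0 in lists of equal length. Without single replicates the counts stayed at 21, 14 and 4. With all enzymes pooled, the dose test called 49 genes, and 0 chemoreceptor genes, when restricted to genes marked in at least 4 treated libraries. It called 0 with Hia5 alone, with library number as a block and without single replicates (925, 310 and 722 to 812 genes at an unadjusted p under 0.05). With Hia5 alone few libraries were left, and the smallest adjusted p over all genes was 0.096 (Fisher's exact test), so 0 called says little. The same holds with library number as a block, which allows fewer arrangements of dose class than the unblocked test. Hia5 6 U minus 2 U was -3.5 marked chemoreceptor genes, and -3.5 with the replicate number as a block (-2 and -5 within replicates), without a test. The 5' end alternative was not run, for lack of strand. Depth limits the absence of a peak: it says that none was called, not that the site was closed.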
